A study of Homo sapiens with 12 samples.

Results

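Base excision repair removes single damaged bases from DNA, and it is the pathway that handles most of the methylated bases left by temozolomide (TMZ). A DNA glycosylase cuts out the altered base, the endonuclease APEX1 opens the strand at the empty site, PARP1 binds the break, POLB fills the gap, and a ligase held by the scaffold XRCC1 seals it. In glioma treated with TMZ, the glycosylase MPG acts on the N-methylpurines, whereas MGMT acts on the methylated oxygen of guanine.

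The genes described here were the 10 named for these steps, listed by their role in the pathway, out of 19775 genes measured. They were the glycosylases UNG, MPG, TDG and OGG1, the endonuclease APEX1, the scaffold XRCC1, the break sensor PARP1, the polymerase POLB, and the ligases LIG1 and LIG3. All 10 were measured, by 20 probe sets that name 1 gene only. Expression was read on 12 arrays of U-87 MG, an established human glioma line. Every culture carried a stably transfected short hairpin RNA, one directed at p105 in the shp105 cells and a control one in the shControl cells. p105 is made from NFKB1 and is cut to give p50, a subunit of NF-kB. For 16 h the cells were given 100 uM TMZ or its vehicle control DMSO, which made 4 groups of 3 arrays: shControl with DMSO, shControl with TMZ, shp105 with DMSO and shp105 with TMZ. The labels do not say whether a line is 1 clone or a pool, nor whether the 3 biological replicates of a group came from separate transfections, so p-values measure the spread between these cultures only. Less transcript per cell and fewer cells that express a gene cannot be told apart in such bulk RNA.

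Values are log2 levels, so a difference of -0.33 is a level 0.796 times as high. A gene was called when its Benjamini-Hochberg adjusted p over all 19775 genes, from limma's moderated test, lay under 0.05. Array medians ran from 5.04 to 5.09. The mean of 18 hybridization spike-in probe sets, which report the hybridization and not the cells, differed between groups: it was 10.63 (SD 0.05) in shControl with DMSO, 10.95 (SD 0.09) in shControl with TMZ, 11.13 (SD 0.10) in shp105 with DMSO and 11.32 (SD 0.13) in shp105 with TMZ (n = 3 each). The targeted gene NFKB1 stood at 7.32, 7.41, 7.20 and 7.16 in the same order of groups; shp105 minus shControl was -0.12 (adjusted p = 0.260, not called) in DMSO and -0.25 (adjusted p = 0.0204, limma) in TMZ. Of the markers of the glioma or astrocyte lineage, VIM (group means 14.73 to 14.81) and CD44 (12.63 to 12.99) were high, while AQP4 (3.01 to 3.23) and S100B (3.50 to 3.63) lay within the 2.33 to 4.30 of 27 control probe sets for bacterial transcripts, and GFAP (5.05 to 5.21), SOX2 (5.02 to 5.17) and NES (4.92 to 5.53) lay slightly above that range. Of the markers of other cell types, the leukocyte genes PTPRC (2.92 to 3.23) and CD14 (3.53 to 3.66), the endothelial CDH5 (3.13 to 3.39) and the epithelial CDH1 (3.21 to 3.49) lay within it. The leukocyte gene CD3E (5.63 to 5.87), the endothelial PECAM1 (5.81 to 5.87) and the epithelial EPCAM (4.94 to 5.55) lay above it.

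The stretches before the start sites of the members that differed in any comparison are shown so that their differences can be read beside their regulatory sequence. Windows from RefSeq's promoter table (GRCh38.p14) were searched for 9 of the 10 members, UNG with 2 start sites. POLB was left out of this search, so no window of it is printed and its motifs were not tested. MPG and APEX1, which were called in no comparison, were searched but are not printed. Each line gives the 200 bases that end just before the start, 5′ to 3′ on the gene's strand. Capitals mark matches, on either strand, to an E2F site (TTTCGCGC, TTTGGCGC, TTTCCCGC or TTTGCCGC), to a CCAAT box (CCAAT) or to the NF-kB consensus.
UNG, first start, chr12:109097397-109097596, plus strand: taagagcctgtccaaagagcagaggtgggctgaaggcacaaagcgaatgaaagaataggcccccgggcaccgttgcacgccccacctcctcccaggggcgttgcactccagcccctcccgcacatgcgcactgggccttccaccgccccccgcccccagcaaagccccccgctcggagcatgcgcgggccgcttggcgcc
UNG, second start, chr12:109097972-109098171, plus strand: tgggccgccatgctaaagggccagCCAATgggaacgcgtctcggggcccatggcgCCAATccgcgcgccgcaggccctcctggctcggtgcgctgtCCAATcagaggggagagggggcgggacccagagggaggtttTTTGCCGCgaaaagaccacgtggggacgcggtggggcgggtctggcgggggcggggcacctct
TDG, chr12:103965672-103965871, plus strand: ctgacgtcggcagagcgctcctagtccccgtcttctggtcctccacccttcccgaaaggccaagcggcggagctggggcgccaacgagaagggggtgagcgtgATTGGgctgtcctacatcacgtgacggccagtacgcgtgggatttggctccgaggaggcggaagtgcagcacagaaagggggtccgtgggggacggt
OGG1, chr3:9749752-9749951, plus strand: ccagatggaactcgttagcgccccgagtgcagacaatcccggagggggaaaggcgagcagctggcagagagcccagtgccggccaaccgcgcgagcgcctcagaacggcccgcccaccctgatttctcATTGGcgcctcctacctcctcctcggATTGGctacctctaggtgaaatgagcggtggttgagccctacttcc
XRCC1, chr19:43575528-43575727, minus strand: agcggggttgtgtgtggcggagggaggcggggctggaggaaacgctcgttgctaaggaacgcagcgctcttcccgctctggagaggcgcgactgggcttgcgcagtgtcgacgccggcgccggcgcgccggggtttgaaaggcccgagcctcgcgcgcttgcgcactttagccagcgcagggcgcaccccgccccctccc
LIG3, chr17:34980312-34980511, plus strand: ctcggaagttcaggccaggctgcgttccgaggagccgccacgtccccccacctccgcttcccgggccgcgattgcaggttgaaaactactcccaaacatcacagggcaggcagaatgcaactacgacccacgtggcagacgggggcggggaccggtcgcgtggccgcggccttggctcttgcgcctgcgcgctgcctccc
PARP1, chr1:226408094-226408293, minus strand: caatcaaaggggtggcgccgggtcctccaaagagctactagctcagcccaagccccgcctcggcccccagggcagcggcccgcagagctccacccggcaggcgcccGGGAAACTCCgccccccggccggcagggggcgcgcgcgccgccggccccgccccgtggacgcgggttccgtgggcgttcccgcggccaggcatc
LIG1, chr19:48170345-48170544, minus strand: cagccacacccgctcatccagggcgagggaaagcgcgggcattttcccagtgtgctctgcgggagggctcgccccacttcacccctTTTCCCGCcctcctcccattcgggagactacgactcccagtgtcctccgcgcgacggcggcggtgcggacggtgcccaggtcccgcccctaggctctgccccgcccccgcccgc

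An E2F match stood 63 bases before the second UNG start and 114 bases before the LIG1 start, and in no other window of the 9 members. Of 34943 promoter windows of the same length in the table, 2.26% held one. CCAAT boxes stood before the starts of 4 members: UNG with 3 (176, 145 and 104 bases before its second start), OGG1 with 2 (72 and 46 bases), TDG with 1 (97 bases) and APEX1 with 1 (87 bases). This box was in 28.1% of all windows. The NF-kB consensus was found before PARP1 alone, 94 bases from the start, and in 8.12% of all windows. No matches of different motifs overlapped. The GC content of the members' windows ran from 60.5% to 78.0%. A match is a run of letters and was not tested for binding.

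The first question was how each line answered TMZ. UNG, the glycosylase that removes uracil from DNA, was the member with the largest change. In shControl cells with DMSO the 3 arrays read 6.76, 6.68 and 6.86, and with TMZ 6.44, 6.48 and 6.44. In shp105 cells they read 6.83, 6.80 and 6.94 with DMSO and 6.56, 6.47 and 6.49 with TMZ. In each line all 3 arrays with TMZ lay below all 3 with DMSO. UNG fell in shp105 cells by 0.35 on the log2 scale (SE 0.06, limma adjusted p = 0.0254). The difference in shControl cells was nearly as large, -0.31 (SE 0.06), but narrowly missed the threshold (limma adjusted p = 0.0583). Averaged over both lines, UNG fell by 0.33 (SE 0.04, limma adjusted p = 0.00240), which is 20.4% less signal. The shp105 call was lost when the fit held just the 2 shp105 groups (adjusted p = 0.175), with every probe set tested on its own (0.0631), and on leaving out shControl TMZ replicate 1, any shp105 DMSO replicate, or shp105 TMZ replicate 2 or 3 (0.0504 to 0.0931). The averaged call held without any 1 of the 12 arrays. UNG was read by 1 probe set, and RefSeq lists the pseudogenes UNGP1, UNGP2 and UNGP3, whose transcripts it could also bind. The shControl difference was called after quantile normalization (adjusted p = 0.0275), with array weights (0.0265) and with genes below the median level left out (0.00828).

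**Figure D1:**
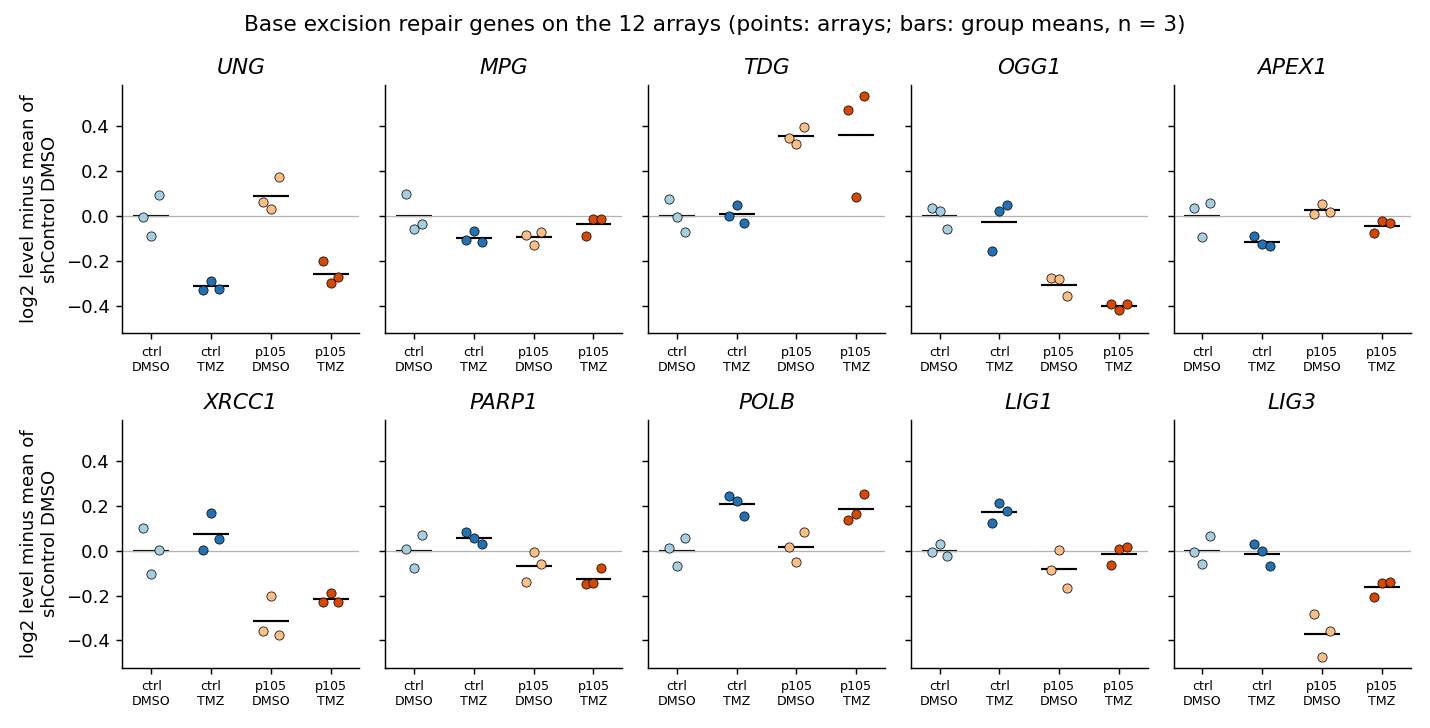
Log2 level of each of the 10 members on the 12 arrays, less the mean of shControl cells with DMSO; points are arrays, bars are group means (n = 3), and ctrl and p105 stand for shControl and shp105. UNG with TMZ lies under UNG with DMSO in both lines, POLB with TMZ lies over POLB with DMSO, and OGG1, XRCC1 and LIG3 lie lower in shp105 than in shControl cells in each treatment.

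POLB, the gap-filling polymerase, went the other way. Its arrays read 9.91, 9.82 and 9.95 in shControl cells with DMSO against 10.13, 10.11 and 10.05 with TMZ. In shp105 cells they read 9.91, 9.84 and 9.98 with DMSO against 10.03, 10.06 and 10.14 with TMZ. The groups shared no range in either line. The difference was 0.21 (SE 0.06, limma adjusted p = 0.211) in shControl and 0.17 (SE 0.06, limma adjusted p = 0.190) in shp105 cells, neither called; averaged over the lines POLB rose by 0.19 (SE 0.04, limma adjusted p = 0.0328), or 13.8% more signal. That call was lost on leaving out shControl DMSO replicate 1 or 2, any shControl TMZ replicate, shp105 DMSO replicate 1 or 2, or shp105 TMZ replicate 3 (adjusted p = 0.0551 to 0.0868). It was also lost with every probe set tested on its own (adjusted p = 0.0666) and with the mean of POLB's 3 probe sets (0.11, adjusted p = 0.239), of which the other 2 stood at 2.75 and 2.65, within the range of the bacterial controls. The shControl difference was called with trend and robust fitting (limma adjusted p = 0.0333).

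Counted over the members, 0 of 10 were called in the TMZ response of shControl cells, where 0.369% of all genes were called, and 4 had an unadjusted limma p under 0.05, against 11% of all genes. In shp105 cells 1 of 10 was called, where 0.865% of all genes were called. In the response averaged over the lines 2 of 10 were called (3.36% of all genes), 1 higher (1.84%) and 1 lower (1.53%). Groups that did not overlap were found for 4 members in shControl cells (20.3% of all genes) and for 5 in shp105 cells (20.4%). The members' median averaged response was 0.0034, and that of all genes 0.0054. When the spike-in mean entered the fit as a covariate, UNG's averaged difference was -0.41 (adjusted p = 0.231), its shp105 difference -0.40 (adjusted p = 0.121) and POLB's averaged difference 0.20 (adjusted p = 0.611), so all 3 calls were lost, with differences as large as without it. The spike-in mean was itself higher with TMZ in each line. Over all genes, the fewest calls under any of the alternatives described at the end were 2 for TMZ in shp105 cells and 4 averaged. The loss is thus not read as particular to these members.

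The remaining members gave differences that were not called under TMZ. MPG, the glycosylase for N-methylpurines, differed by -0.10 in shControl cells (95% interval -0.22 to 0.02) and by 0.06 in shp105 cells (-0.06 to 0.18). TDG, which removes thymine and uracil opposite guanine, differed by 0.01 in each line (-0.21 to 0.22 in each). OGG1, which removes oxidised guanine, differed by -0.03 (-0.16 to 0.10) and -0.10 (-0.23 to 0.04). On their brightest probe sets these 3 glycosylases thus lay within 0.10 of their DMSO means in both lines; TDG's dimmer probe set gave 0.12 and -0.11, and the second OGG1 probe set gave 0.04 and 0.11, none called. APEX1 differed by -0.12 (-0.23 to -0.0017) in shControl and by -0.07 (-0.18 to 0.04) in shp105 cells. XRCC1 differed by 0.07 (-0.08 to 0.23) and 0.10 (-0.06 to 0.25), and PARP1 by 0.06 (-0.07 to 0.18) and -0.06 (-0.18 to 0.07). LIG1, the ligase of DNA replication and long-patch repair, differed by 0.17 (0.05 to 0.29) in shControl cells, where its arrays did not overlap, and by 0.07 (-0.05 to 0.19) in shp105 cells. LIG3, the partner of XRCC1, differed by -0.01 (-0.15 to 0.12) and by 0.21 (0.07 to 0.34), with no overlap in shp105 cells. The mean of its 6 probe sets gave 0.01 and 0.03, and a probe set with a mean of 7.22 gave -0.17 in shp105 cells. Leaving out genes below the median level brought LIG3 in shp105 cells (adjusted p = 0.0339) and the averaged LIG1 difference (0.12, adjusted p = 0.0318) under the threshold. The arrays of MPG in shControl cells, and of OGG1 (brightest probe set) and APEX1 in shp105 cells, did not overlap either, with TMZ below DMSO.

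**Figure D2:**
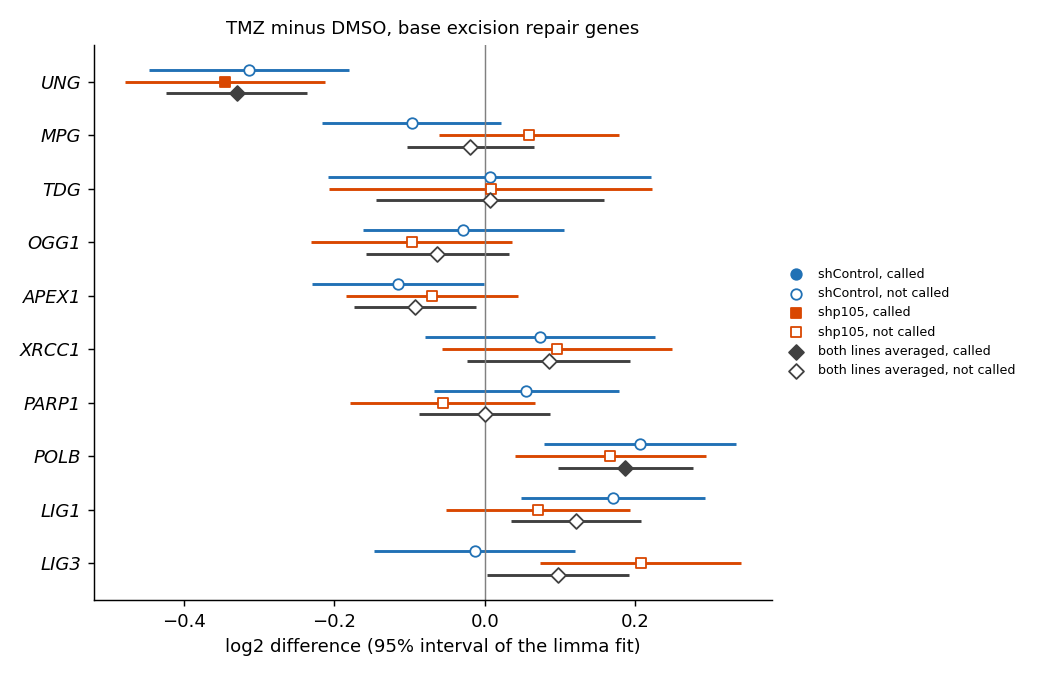
TMZ minus DMSO of each member as a log2 difference with its 95% interval, in shControl cells (circles), in shp105 cells (squares) and averaged over both (diamonds); filled symbols are called. UNG is lower in all 3 and filled for shp105 cells and the average, and POLB is filled for the average only.

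Whether the 2 lines differed in their answer was tested as the difference of both TMZ responses, shp105 minus shControl. By limma, 0 of the 10 members and 0 of all 19775 genes were called (0%), with 1 member and 1266 genes (6.4%) at an unadjusted p under 0.05. Limma called 8 genes when genes below the median level were left out and 12 with trend and robust fitting, and none of the 10 members in either. The 1 member was LIG3, at 0.22 (95% interval 0.03 to 0.41, limma adjusted p = 0.766), and at 0.01 with the mean of its probe sets. For UNG the difference of responses was -0.03 (-0.22 to 0.16), and for POLB it was -0.04 (-0.22 to 0.14). Among the other glycosylases it was 0.16 (-0.01 to 0.32) for MPG, 0.0014 (-0.30 to 0.31) for TDG and -0.07 (-0.26 to 0.12) for OGG1. For APEX1 it was 0.05 (-0.12 to 0.21) and for XRCC1 0.02 (-0.19 to 0.24), and the values of PARP1 and LIG1 are given with their line differences. UNG, called in 1 line and not in the other, was thus not shown to respond differently in the 2 lines.

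The second question was how cells with the p105 hairpin differed from cells with the control hairpin. Of the 10 members, TDG was higher in shp105 cells, and OGG1, XRCC1 and LIG3 were lower, in DMSO. In TMZ, TDG was again higher and OGG1, XRCC1, PARP1 and LIG1 were lower. This gave 4 of 10 called in DMSO, 1 higher (8.34% of all genes) and 3 lower (11.6%), and 5 of 10 in TMZ, 1 higher (10.1%) and 4 lower (11%). Called in either direction were 19.9% of all genes in DMSO and 21.1% in TMZ. The called members differed by at most 0.37 log2 units. The members' median difference was -0.08 in DMSO and -0.09 in TMZ, and that of all genes was -0.01 in each.

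TDG read 8.68, 8.60 and 8.53 in shControl cells with DMSO and 8.96, 8.93 and 9.00 in shp105 cells with DMSO. With TMZ it read 8.61, 8.66 and 8.58 in shControl and 9.08, 8.69 and 9.14 in shp105 cells. The lines did not overlap under either treatment, although shp105 TMZ replicate 2 lay just above the highest shControl array. The difference was 0.35 (SE 0.10, limma adjusted p = 0.0240) in DMSO and 0.36 (SE 0.10, limma adjusted p = 0.0225) in TMZ. TDG's dimmer probe set (mean 6.61) gave 0.33 (adjusted p = 0.110) in DMSO and 0.10 (adjusted p = 0.669) in TMZ, both uncalled, and RefSeq lists a pseudogene, TDGP1, whose transcripts a probe set could also bind. The DMSO call was lost on leaving out shControl replicate 2 or 3 or shp105 replicate 1 or 3 of that treatment (adjusted p = 0.0621 to 0.0870). The TMZ call was lost without shControl TMZ replicate 1 or 3 or shp105 TMZ replicate 1 or 3 (0.0627 to 0.0841), with only the compared groups (0.0828), and with the mean of both probe sets (0.23, adjusted p = 0.125).

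OGG1 read 9.52, 9.50 and 9.43 in shControl cells with DMSO and 9.21, 9.20 and 9.13 in shp105 cells. With TMZ it read 9.33, 9.51 and 9.53 against 9.09, 9.06 and 9.09. Every shp105 array lay below every shControl array. The difference was -0.31 (SE 0.06, limma adjusted p = 0.00371) in DMSO and -0.37 (SE 0.06, limma adjusted p = 0.000921) in TMZ, and both calls held without any 1 array. These values come from the brightest OGG1 probe set (mean 9.30). Neither of the others was called: the next (mean 7.36) gave 0.02 in DMSO and 0.09 in TMZ, and the dimmest (mean 4.70) gave -0.03 and 0.02. With the mean of the 3 probe sets the OGG1 differences were -0.11 (adjusted p = 0.254) and -0.09 (adjusted p = 0.346). In RefSeq (GRCh38.p14) OGG1 overlaps CAMK1, which differed by 0.05 and 0.09 (uncalled), and TADA3, which was lower by -0.18 in DMSO (limma adjusted p = 0.0356) and stood at -0.15 in TMZ (adjusted p = 0.0736); their part in the OGG1 signal was not tested.

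XRCC1 and LIG3 encode partners in one complex, the scaffold and the ligase of short-patch repair. XRCC1, read by 1 probe set, stood at 8.26, 8.05 and 8.16 in shControl cells with DMSO and at 7.80, 7.95 and 7.78 in shp105 cells. With TMZ it stood at 8.16, 8.32 and 8.21 against 7.93, 7.97 and 7.93. The lines did not overlap under either treatment. XRCC1 was lower by -0.31 (SE 0.07, limma adjusted p = 0.00765) in DMSO and by -0.29 (SE 0.07, limma adjusted p = 0.0113) in TMZ; the TMZ call was lost without shControl TMZ replicate 2 (-0.24, adjusted p = 0.0509). PINLYP, a gene that overlaps one end of XRCC1 in RefSeq, was lower in shp105 cells by -1.29 (SE 0.09, limma adjusted p = 6.55e-07) in DMSO and -1.51 (SE 0.09, limma adjusted p = 1.89e-07) in TMZ, and its part in the XRCC1 signal was not tested.

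LIG3 read 7.96, 7.90 and 8.03 in shControl cells with DMSO and 7.68, 7.49 and 7.60 in shp105 cells. With TMZ it read 7.99, 7.96 and 7.89 against 7.75, 7.82 and 7.82. The lines again shared no range, with a wider gap in DMSO. LIG3 was lower by -0.37 (SE 0.06, limma adjusted p = 0.000996) in DMSO and stood at -0.15 (SE 0.06, limma adjusted p = 0.110) in TMZ, which was not called. Its 6 probe sets were divided. The brightest 2 (means 7.82 and 7.59) gave -0.37 and -0.28 in DMSO (adjusted p = 0.00220 and 0.0429 over all probe sets), while the other 4 lay between -0.07 and 0.05 and none was called. With the mean of all 6 the DMSO difference was -0.12 (adjusted p = 0.247). LIG3 overlaps RFFL, which differed by 0.21 (adjusted p = 0.125) in DMSO.

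**Figure D3:**
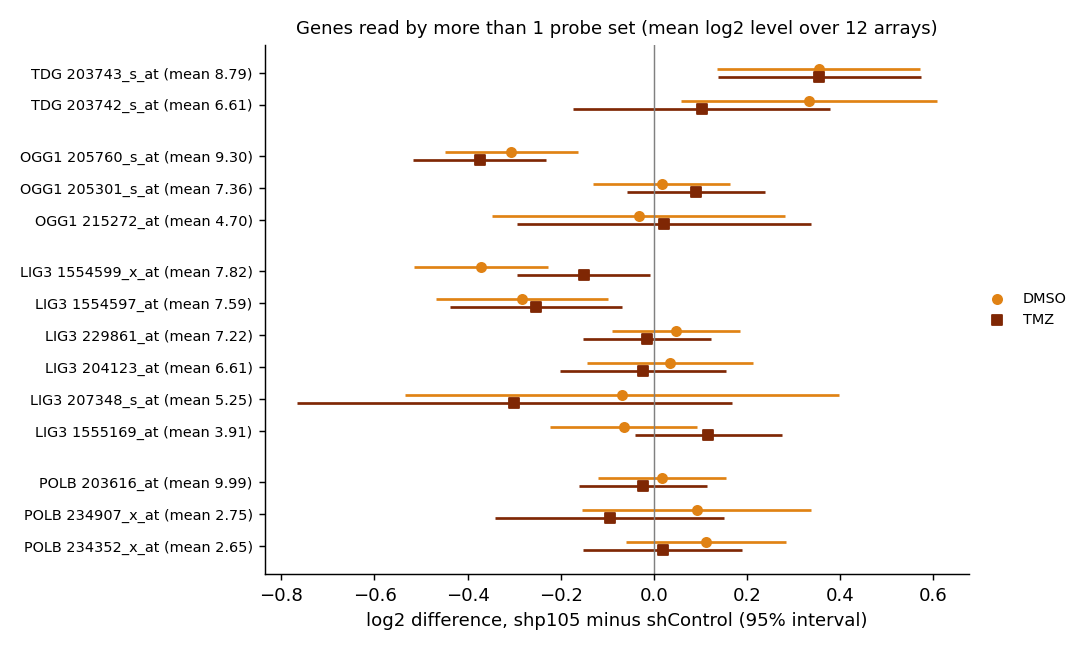
Log2 difference of shp105 minus shControl with its 95% interval for each probe set of the 4 members read by more than 1, in DMSO (circles) and TMZ (squares); the mean log2 level over 12 arrays stands beside each name. The brightest OGG1 probe set and the brightest 2 of LIG3 lie left of 0 in DMSO, and their dimmer ones lie near 0.

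PARP1, which binds strand breaks and builds poly(ADP-ribose) chains, read 9.40, 9.32 and 9.46 in shControl cells with DMSO and 9.25, 9.39 and 9.33 in shp105 cells, with overlap. With TMZ it read 9.48, 9.45 and 9.42 against 9.24, 9.25 and 9.32, with no overlap. PARP1 differed by -0.07 (SE 0.06, limma adjusted p = 0.480) in DMSO, not called, and was lower by -0.18 (SE 0.06, limma adjusted p = 0.0403) in TMZ. That call was lost with median centring (adjusted p = 0.0502), with the compared groups alone (0.0762), with every probe set on its own (0.0716), and on leaving out shControl DMSO replicate 1, any shControl TMZ replicate, shp105 DMSO replicate 3, or shp105 TMZ replicate 1 or 2 (0.0545 to 0.125). The pseudogenes PARP1P1 and PARP1P2 are listed in RefSeq.

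LIG1 read 7.50, 7.54 and 7.48 in shControl cells with DMSO and 7.42, 7.51 and 7.34 in shp105 cells. With TMZ it read 7.63, 7.72 and 7.68 against 7.44, 7.52 and 7.52. The lines overlapped in DMSO and did not in TMZ. LIG1 differed by -0.08 (SE 0.06, limma adjusted p = 0.368) in DMSO, not called, and was lower by -0.18 (SE 0.06, limma adjusted p = 0.0360) in TMZ. That call was lost with trend and robust fitting (adjusted p = 0.0518), with the compared groups alone (0.0813), with every probe set on its own (0.0649), and on leaving out any array of either TMZ group or shp105 DMSO replicate 1 (0.0503 to 0.117). For neither PARP1 nor LIG1 did the line difference itself change between the treatments beyond the threshold: the change was -0.11 (95% interval -0.28 to 0.06) for PARP1 and -0.10 (-0.27 to 0.07) for LIG1.

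The other 4 members were not called between the lines. UNG differed by 0.09 (95% interval -0.04 to 0.22) in DMSO and 0.06 (-0.08 to 0.19) in TMZ. MPG differed by -0.10 (-0.22 to 0.02) and 0.06 (-0.06 to 0.18). APEX1 differed by 0.03 (-0.09 to 0.14) and 0.07 (-0.04 to 0.19), and POLB by 0.02 (-0.11 to 0.14) and -0.02 (-0.15 to 0.10). POLB thus lay at nearly the same mean in both lines under each treatment. Groups that did not overlap were found for 5 members in DMSO (35.9% of all genes) and 7 in TMZ (35.7%).

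**Figure D4:**
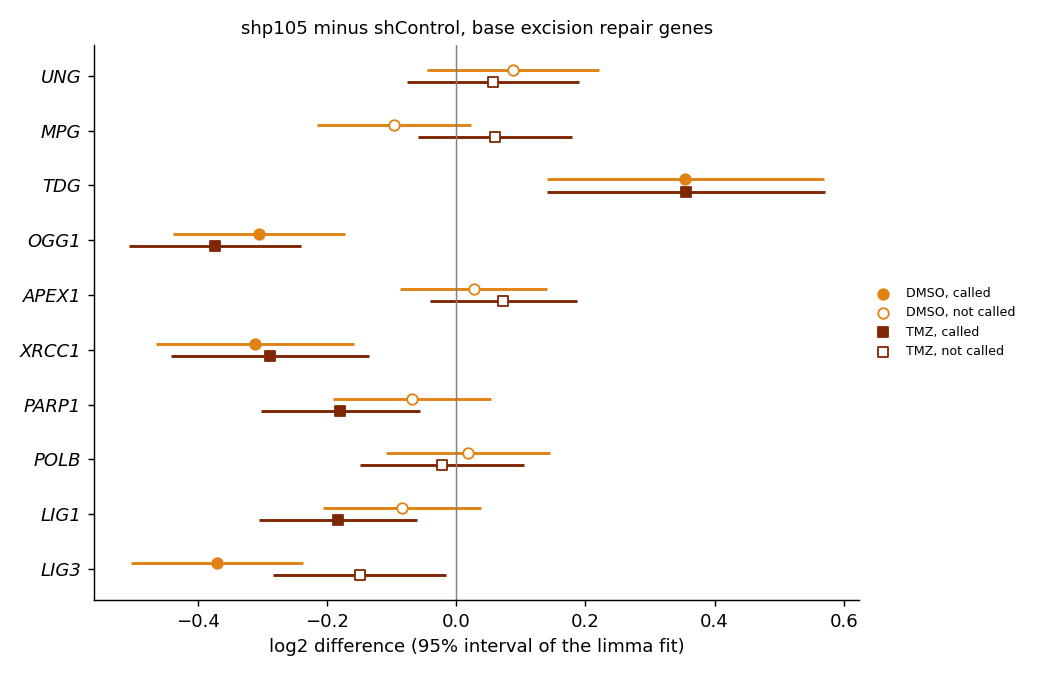
Log2 difference of shp105 minus shControl for each member with its 95% interval, in DMSO (circles) and TMZ (squares); filled symbols are called. TDG lies right of 0, OGG1, XRCC1 and LIG3 lie left of 0 under both treatments, and PARP1 and LIG1 are filled in TMZ only.

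The spike-in level moved with the lines, as given above, and so did the gap between the 3′ and 5′ GAPDH probe sets, which widens as RNA degrades, at 0.25 (SD 0.03) in shControl and 0.36 (SD 0.04) in shp105 cells with DMSO, and at 0.30 (SD 0.03) and 0.40 (SD 0.04) with TMZ. The same gap for ACTB was 3.02 (SD 0.06) in shControl and 3.07 (SD 0.11) in shp105 cells with DMSO, where the lines overlapped. With TMZ it was 2.85 (SD 0.08) and 3.06 (SD 0.08), wider in shp105 cells and without overlap. In shControl cells the ACTB gap was smaller with TMZ than with DMSO, unlike that of GAPDH. When the spike-in mean entered the fit, 0 of 10 members were called between the lines by limma. Over all genes, the fewest calls under any of the alternatives described at the end were 523 in DMSO and 1045 in TMZ. The count of all genes called with this covariate is not given here, so the 0 is not read as particular to the members. Under that fit the differences in DMSO were 0.43 for TDG (adjusted p = 0.504), -0.41 for OGG1 (0.231), -0.35 for XRCC1 (0.438) and -0.42 for LIG3 (0.228). In TMZ they were 0.41 for TDG (0.308), -0.45 for OGG1 (0.0565) and -0.32 for XRCC1 (0.272), but -0.08 for PARP1 (0.791) and -0.10 for LIG1 (0.719). PARP1 and LIG1 were thus nearer 0 than without the covariate, and the others were farther from it. The covariate itself differs between the lines and also between TMZ and DMSO. The part of hybridization or RNA quality in these differences was not tested.

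TDG had the largest spread between the 4 group means of all members (SD 0.21), followed by OGG1 and UNG (0.20 each), and MPG had the smallest (0.05). The genes whose profile over the 12 arrays was most like that of TDG were DCBLD1, LEPROT and ELOVL6, with a root mean square difference of 0.05, 0.07 and 0.07 log2 units after each gene was centred on its mean. Since they were picked for a profile like TDG's, their line differences follow from the choice; that of DCBLD1 was 0.32 in DMSO and 0.35 in TMZ.

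Of 20 other genes of the pathway listed for comparison, 18 were measured. NEIL3, a glycosylase for oxidised bases in single-stranded DNA, was the one that differed in most comparisons. It read 8.41, 8.32 and 8.42 in shControl cells with DMSO and 8.76, 8.68 and 8.78 with TMZ. In shp105 cells it read 8.09, 7.93 and 8.15 with DMSO and 8.41, 8.39 and 8.46 with TMZ. NEIL3 rose with TMZ by 0.35 (SE 0.06, limma adjusted p = 0.0441) in shControl and by 0.36 (SE 0.06, limma adjusted p = 0.0247) in shp105 cells. It was lower in shp105 than in shControl cells by -0.33 (SE 0.06, limma adjusted p = 0.00279) in DMSO and -0.32 (SE 0.06, limma adjusted p = 0.00321) in TMZ. So shp105 cells with TMZ stood at 8.42, near the 8.39 of shControl cells with DMSO. Both line calls and the averaged TMZ call (0.36, limma adjusted p = 0.00176) held without any 1 array; the shControl response was lost on leaving out 10 of the 12 arrays (all but shp105 DMSO replicates 2 and 3; adjusted p up to 0.191), and the shp105 response without shp105 DMSO replicate 1 or 2 or shp105 TMZ replicate 2 or 3 (up to 0.0882).

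Averaged over the lines, NEIL3 and PARP2, a relative of PARP1, were the 2 of 18 that rose with TMZ (0 fell), where 1.84% of all genes rose; the median of the 18 was 0.10. PARP2 rose by 0.19 (SE 0.04, limma adjusted p = 0.0306), a call lost on leaving out 9 of the 12 arrays (all but shControl DMSO replicate 1 and shp105 TMZ replicates 1 and 2; adjusted p up to 0.0841). In each line by itself 1 of 18 rose, NEIL3, where 0.369% of all genes were called in shControl and 0.865% in shp105 cells. Between the lines in DMSO, 4 of 18 were lower in shp105 cells and 0 higher, against 11.6% and 8.34% of all genes: NEIL3, PCNA, the sliding clamp of DNA synthesis (-0.23, SE 0.06, limma adjusted p = 0.0190), FEN1, the flap nuclease of long-patch repair (-0.18, SE 0.05, limma adjusted p = 0.0377), and MUTYH, which removes adenine opposite oxidised guanine (-0.19, SE 0.06, limma adjusted p = 0.0384). In TMZ, where 11% of all genes were lower and 10.1% higher, 2 of 18 were lower, a share close to that background, NEIL3 and PCNA (-0.22, SE 0.06, limma adjusted p = 0.0226), and 1 was higher, POLL, a gap-filling polymerase related to POLB (0.34, SE 0.07, limma adjusted p = 0.00466). POLL stood at 0.06 (adjusted p = 0.672) in DMSO, and its change between the treatments was 0.28 (limma adjusted p = 0.719). The POLL call held without any 1 array. The PCNA call in DMSO was lost without shControl DMSO replicate 1 or 2 or shp105 DMSO replicate 1 or 3 (adjusted p up to 0.0799) and in TMZ without shControl TMZ replicate 1 or 3 or shp105 TMZ replicate 2 or 3 (up to 0.0764). That of FEN1 was lost without shControl DMSO replicate 1 or 3, shControl TMZ replicate 1 or 3, or shp105 DMSO replicate 2 or 3 (up to 0.146), and that of MUTYH without shControl DMSO replicate 1 or 3, any shControl TMZ replicate, or shp105 DMSO replicate 1 or 3 (up to 0.151). With the spike-in covariate none of these 11 calls was kept (adjusted p = 0.113 to 0.969). The count of all genes called with that covariate is not given here, so the loss is not read as particular to these genes. Under that covariate NEIL3 stood at -0.42 and -0.39 between the lines in DMSO and TMZ, and FEN1 at -0.29 in DMSO. These lay farther from 0 than without it. The averaged TMZ responses of NEIL3 at 0.31 and PARP2 at 0.18, and POLL at 0.24 between the lines in TMZ, lay nearer 0. MUTYH at -0.02 in DMSO and PCNA at -0.10 in DMSO and -0.12 in TMZ lay nearer 0 too.

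**Figure D5:**
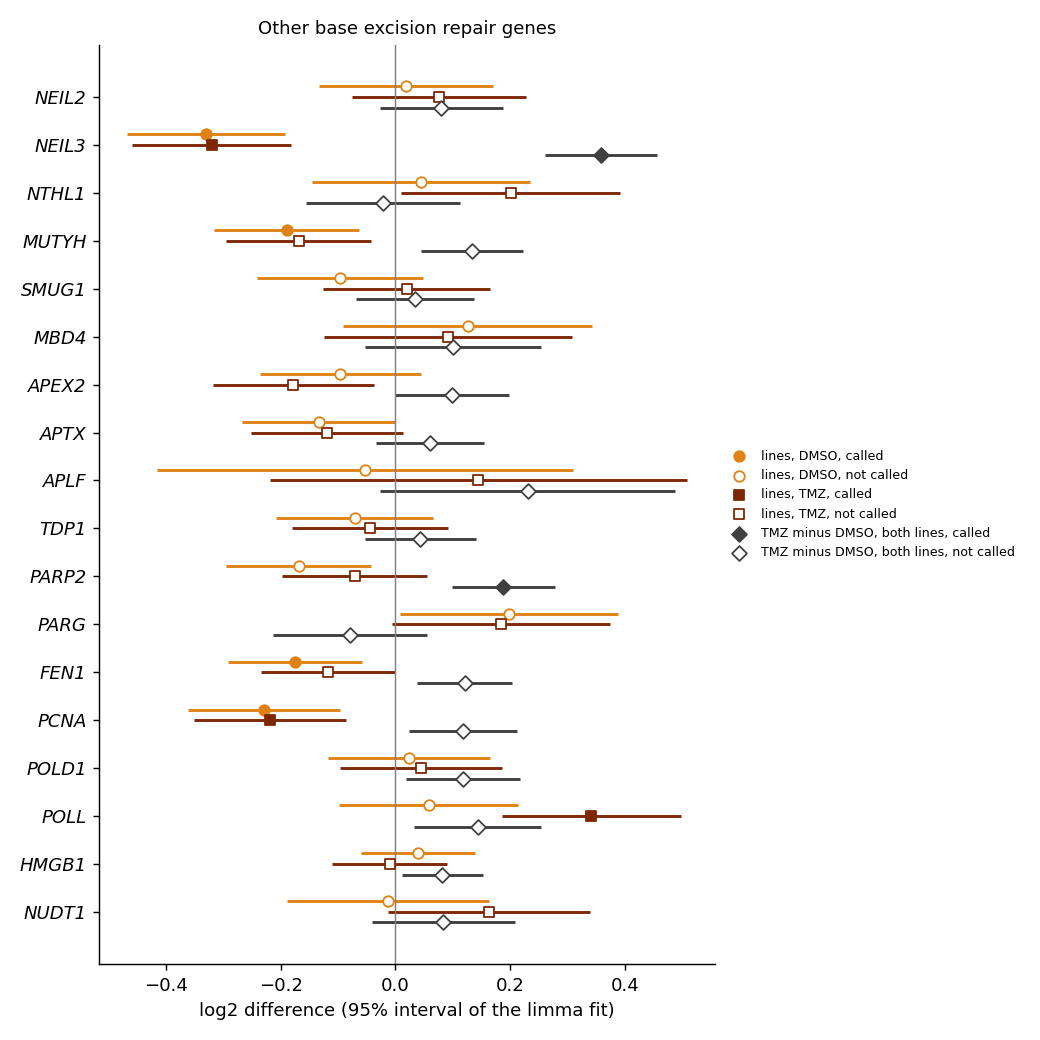
Log2 differences with 95% intervals for the 18 other measured genes of the pathway: shp105 minus shControl in DMSO (circles) and in TMZ (squares), and TMZ minus DMSO averaged over both lines (diamonds); filled symbols are called. NEIL3 is filled left of 0 between the lines and right of 0 for TMZ.

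The sizes can be set beside genes outside the pathway. CDKN1A, a cell-cycle inhibitor that p53 activates, rose with TMZ by 0.88 (SE 0.06) in shControl and 0.92 (SE 0.06) in shp105 cells (limma adjusted p = 4.47e-05 and 2.80e-05). MGMT lay between 3.38 and 3.67 in all 4 groups, within the range of the bacterial controls, and was not called. The UNG response was thus well under the CDKN1A response in size, with the opposite sign.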

How the data were processed

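Total RNA of 12 cultures was hybridized to Affymetrix arrays. The authors deposited 1 normalized log2 value for each probe set and array; RMA and Affymetrix Power Tools are named in the submitters' processing notes, without versions or roles. The annotation and any filter were not stated. All 54675 probe sets had values on all 12 arrays. Gene names came from GEO's platform annotation, updated by Entrez identifier through RefSeq (GRCh38.p14): 41097 probe sets had 1 symbol, 1801 several and 11777 none. The probe set with the highest mean stood for a gene, which left 19775 genes. No dim gene was left out.

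One limma fit of 4 group means over all 12 arrays (lmFit, eBayes; R 4.3.3, limma 3.58.1) gave 6 contrasts, 2-sided, adjusted over all genes and called under 0.05. Intervals are 95% limits of that fit. The fit was tested on simulated data. Every member is given for every comparison, in the text or in a plot; of the other pathway genes, those called. Members, lists and tests were chosen with earlier results of these data known. The number of arrays limits the precision. Python 3.11.15 with matplotlib 3.10.9 drew the plots.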

Additional observations from a re-analysis of the deposited data

How the results depend on the processing

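The number of called members under alternatives, beside 0 for TMZ in shControl, 1 for TMZ in shp105, 4 between the lines in DMSO, 5 in TMZ, 0 for the difference of responses and 2 for the averaged response, was as follows. Averaging the probe sets of each gene, it was 2 between the lines in DMSO, 3 in TMZ and 1 for the averaged response. With each probe set on its own it was 0 for TMZ in shp105, 3 between the lines in TMZ and 1 averaged. Leaving out genes below the median level gave 1 for TMZ in shControl and 2 in shp105. Quantile normalization and array weights each gave 1 for TMZ in shControl, which was UNG. Trend with robust fitting gave 1 there as well, which was POLB. With only the compared groups it was 0 for TMZ in shp105 and 2 between the lines in TMZ. The spike-in covariate gave 0 in every comparison. Leaving out 1 array gave 0 for TMZ in shControl, 0 to 1 in shp105, 3 to 4 and 2 to 5 between the lines in DMSO and TMZ, 0 for the difference of responses and 1 to 2 averaged. Over all genes, leaving out 1 array gave 16 to 76 calls for TMZ in shControl and 49 to 188 in shp105. Between the lines it gave 3042 to 4171 in DMSO and 3219 to 4059 in TMZ, and 215 to 649 averaged. Counts of all genes under each of the other alternatives are not listed here. Changes in the member counts are thus not read as particular to the members. The cause of these changes was not tested. Apart from the replicate block, given next, the other alternatives left the member counts within 1.5 times.

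With the replicate number as a block, 0 members were called for TMZ in shp105 (UNG, adjusted p = 0.0506) and 1 averaged (POLB was lost, 0.0571), and PARP1 in TMZ was not called (0.0642). Deviations of same-numbered arrays of different groups correlated at -0.14 to 0.12 across genes, and those of differently numbered arrays at -0.20 to 0.26. A pairing by number was thus not shown, and the labels state none. No called member changed sign under any alternative; 67 of 262 values of called members lost the call. Among the other member values 7 gained one and 58 changed sign. Over all genes, calls ran from 0 to 358 for TMZ in shControl (73 as reported), 2 to 937 in shp105 (171), 523 to 5935 between the lines in DMSO (3937), 1045 to 6317 in TMZ (4166), 0 to 12 for the difference (0) and 4 to 1743 averaged (665).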
